A study of Mus musculus with 10 samples.

Results

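MicroRNAs are made in steps. A long primary transcript folds into a hairpin, the nuclear enzyme Drosha cuts the hairpin out, the cytoplasmic enzyme Dicer removes its loop, and a single strand of about the size of a small RNA read (the mature microRNA) is loaded into an Argonaute protein to repress target mRNAs. The strand that is kept in the main is called the major arm here, and its partner from the other side of the hairpin the minor arm. Mir451a is the known exception, since its short hairpin bypasses Dicer and is cut by Argonaute 2. Most small RNA counts therefore fall on mature microRNAs, and counts on the hairpin itself are a minor fraction of a library.

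The rows described here are the microRNA hairpin transcripts of a count table of small RNAs in mouse B-cells. They were chosen by their measured counts: a row had to be of the microRNA class, to carry a hairpin transcript identifier and to hold 100 or more counts summed over the 10 libraries, and the imprinted Dlk1-Dio3 cluster of chromosome 12 was left out. There were 91 such rows among 713 hairpin rows and 2015 microRNA-class rows, of which 1302 were mature microRNAs, in a table of 6968 rows. None of the 8 hairpin rows of the Dlk1-Dio3 cluster reached 100 counts. The counts came from CD43- splenic B-cells of 3 mouse lines, namely wild-type (wt) animals, animals without the 3'RR (the super-enhancer at the 3' end of the immunoglobulin heavy chain locus) and Eµ-deficient animals (without the intronic enhancer of the same locus, with its flanking matrix attachment regions per the study's methods). CD43 depletion removes most cells that are not resting B-cells. The methods place every line on a 129 background, with male and female animals aged 8 to 12 weeks. Cells were cultured for 2 days either in medium alone (non-stimulated, NS) or with 5 µg/ml of the bacterial lipopolysaccharide LPS, which activates B-cells. Each library came from a pool of 2 mice. There were 2 libraries for each condition of wt and of 3'RR-deficient cells, and a single NS and a single LPS library of Eµ-deficient cells. Whether the replicates came from separate cultures is not given in the sources used here, so the p-values measure the spread between these libraries.

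Depth ran from 3482540 to 18144016 counts per library. The second NS libraries of wt and 3'RR-deficient cells were the shallowest and stood apart: compared with the first, 29 of the 39 hairpin rows without a mature row were higher in the second library of both genotypes, and 22 of the 51 hairpin rows with a mature row were lower in the second library of both genotypes. The Eµ-deficient LPS library also stood apart and is described below. MicroRNA rows held 51.41% of all counts in that library and 60.22% in the Eµ-deficient NS library. Their share was 63.91% and 67.46% in the second NS libraries of wt and 3'RR-deficient cells, and 68.47% to 82.11% in the others. Whether this share bears on the hairpin counts was not tested. The lymphocyte microRNAs miR-150-5p, miR-142a-5p, miR-142a-3p, miR-155-5p and miR-181a-5p summed to between 87970 and 255700 CPM (counts scaled to a common microRNA library size) in all 10 libraries. The sum hides differences between its members. Thus miR-142a-5p had 177500 CPM in the first wt NS library and 7357 CPM in the second. In the LPS comparison below, miR-150-5p and miR-181a-5p were called lower and miR-155-5p higher. Neither arm of miR-142a was called. Another 9 microRNAs known from erythroid, myeloid, endothelial, stromal and liver cells summed to 3174 to 7891 CPM in the 4 wt and 3'RR-deficient NS libraries, 295.2 to 1123 CPM in the 4 LPS libraries, 13460 CPM in Eµ-deficient NS cells and 5012 CPM in Eµ-deficient LPS cells. The liver marker miR-122-5p was at or near 0 in all of them, between 0 and 5.63 CPM. In these bulk samples fewer cells of a type and less RNA per cell cannot be told apart.

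The hairpins on which the LPS comparison turned are shown first, 5′ to 3′ on their own strand, as RefSeq gives them for GRCm38.p6 (the build mm10), with the annotated mature arms in capitals and the flanks and loop in lower case. Mir155 lies at chr16:84714140-84714204 on the plus strand in an exon of the noncoding RNA Mir155hg, Mir148a at chr6:51269812-51269910 on the minus strand outside any long gene, and Mir106b at chr5:138165737-138165818 on the minus strand in an intron of Mcm7. Mir181b-1 lies at chr1:137966639-137966718 on the plus strand in an exon of the noncoding RNA A430106G13Rik, Mir16-1 at chr14:61631880-61631972 on the minus strand in an exon of the noncoding RNA Dleu2, and Mir451a at chr11:78073170-78073241 on the plus strand outside any long gene.
Mir155: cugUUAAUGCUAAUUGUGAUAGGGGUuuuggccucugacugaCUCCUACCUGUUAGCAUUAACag
Mir148a: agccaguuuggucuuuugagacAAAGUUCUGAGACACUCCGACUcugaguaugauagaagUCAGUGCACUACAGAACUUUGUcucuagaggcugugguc
Mir106b: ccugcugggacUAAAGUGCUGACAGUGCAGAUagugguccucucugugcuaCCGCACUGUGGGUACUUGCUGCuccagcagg
Mir181b-1: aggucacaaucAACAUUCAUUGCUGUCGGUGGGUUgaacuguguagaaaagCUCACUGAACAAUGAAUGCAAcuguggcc
Mir16-1: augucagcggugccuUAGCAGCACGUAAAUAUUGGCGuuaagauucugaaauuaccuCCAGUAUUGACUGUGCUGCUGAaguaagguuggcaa
Mir451a: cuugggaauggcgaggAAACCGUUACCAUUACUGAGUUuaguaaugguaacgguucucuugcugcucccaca

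The first 5 sequences carry an arm on each side of a loop, and Mir451a carries a single arm that runs into the loop. In Mir155 21 of 65 nt lay outside the arms, in Mir148a 55 of 99 nt and in Mir451a 50 of 72 nt. Where a mature microRNA can come from several hairpins, the table lists it at a single locus. The 5′ arms of Mir16-1 and Mir181b-1 (miR-16-5p and miR-181b-5p) are thus listed at their other hairpins on chromosomes 3 and 2, and only miR-16-1-3p and miR-181b-1-3p stand inside these 2 rows.

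The 91 rows held 309346 of the 315981 counts on all hairpin rows (97.9%). Of the remaining hairpin rows, 589 had 1 to 99 counts and 33 had none. The rows just inside the threshold were Mir149 (100 counts), Mir296 (103 counts) and Mir15a (105 counts), and those just outside were Mir10a (99 counts), ENSMUST00000102337 (99 counts) and Mir466d (97 counts). Since the counts were summed over all libraries, a row could enter through a single one. Without the Eµ-deficient LPS library 80 of the 91 would have reached 100 counts, and in the 4 wt and 3'RR-deficient NS libraries alone 34. Counts in every library were found for 51 rows, and 26 rows had 50% or more of their counts in a single library, which was the Eµ-deficient LPS library for 21 of them.

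The rows fell into 3 kinds by what the table lists inside their coordinates on the same strand. A mature row was found inside 51 of them (a single arm in 12, both arms in 39), no mature row inside 39 (named orphan rows here), and Mir9-2 had both of its arms listed at another locus. The orphan rows made up 42.86% of the 91 rows but 72.53% of their counts, and the 51 rows with a mature microRNA 27.43%. Lengths ran from 56 to 126 nt with a median of 88 nt. By GENCODE M21 (GRCm38), 28 rows lay in an intron of a long gene, 15 in a noncoding exon, 9 in a UTR exon and 3 in a coding exon, 10 lay antisense to a long gene and 26 touched no long gene. Coordinates equal to those of an annotated hairpin were found for 73 rows, 9 rows stood at other coordinates, and 9 were absent from that annotation.

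Counts were concentrated in a few orphan rows. ENSMUST00000175596 (chr5:17776749-17776835, minus strand, no long gene) held 120223 counts, more than any other hairpin row, and 97110 of them came from the Eµ-deficient LPS library. ENSMUST00000175336, in an intron of Cdk8, held 36188 counts and ENSMUST00000102093, in no long gene, 17974. ENSMUST00000175357, antisense to Fgfr2, held 9125, and ENSMUST00000175243 4514 counts. All 5 of these are among the 9 rows absent from GENCODE M21. Gm25732 (6876 counts), Gm26117 in a UTR exon of Adgrb1 (3212 counts) and Gm23935 (2481 counts) were the largest orphan rows that GENCODE M21 lists. The largest rows with a mature microRNA were Mir5099 (40689 counts), Mir21a (8952 counts), Mir374b (7596 counts) and Mir451a (4663 counts).

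Some of the largest rows varied widely between replicates. ENSMUST00000102093 had 123 and 609 CPM in wt NS, 127 and 489 CPM in wt LPS, 248 and 617 CPM in 3'RR-deficient NS and 100.4 and 585 CPM in 3'RR-deficient LPS libraries 1 and 2. In all 4 groups library 2 was thus the higher one, and LPS and NS values overlapped. The same order held for ENSMUST00000175336, with 287 and 774 CPM in wt NS, 169 and 303 CPM in wt LPS, 421 and 620.2 CPM in 3'RR-deficient NS and 293 and 745 CPM in 3'RR-deficient LPS libraries. Mir5099 had 151 and 509 CPM in wt NS and 234 and 491 CPM in 3'RR-deficient NS libraries, below its 4 LPS values of 691, 895, 1142 and 730 CPM, yet its change with LPS did not pass the test (log2 fold change 1.3 ± 0.51, SE; edgeR, adjusted p = 0.0899). Mir374b, in an intron of the noncoding RNA Ftx that takes part in X inactivation, was low in the second NS libraries alone: it had 142 and 4 CPM in wt NS and 92.3 and 2.66 CPM in 3'RR-deficient NS libraries, against 76.9 to 289 CPM with LPS.

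Neighbouring hairpins, which can come from a single primary transcript, were found in 7 pairs (14 rows within 10000 nt on the same strand). They were Mir23b and Mir27b (131 nt apart), Mirlet7d and Mirlet7a-1 (2064 nt), Mir16-1 and Mir15a (54 nt), Mir93 and Mir106b (126 nt), Mir29a and Mir29b-1 (269 nt), Mir421 and Mir374b (60 nt), and Gm25732 and Gm24245 (38 nt). Gm24245 has the same sequence as rows on other chromosomes (given below), so its pair with Gm25732 rests on position alone. Mir23b had 189 and Mir27b 113 counts, and Mirlet7d had 764 and Mirlet7a-1 408. The partners of other pairs lay further apart. Mir16-1 had 1929 and Mir15a 105 counts, Mir374b had 7596 and Mir421 204, and Mir29b-1 had 633 and Mir29a 120.

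**Figure D1:**
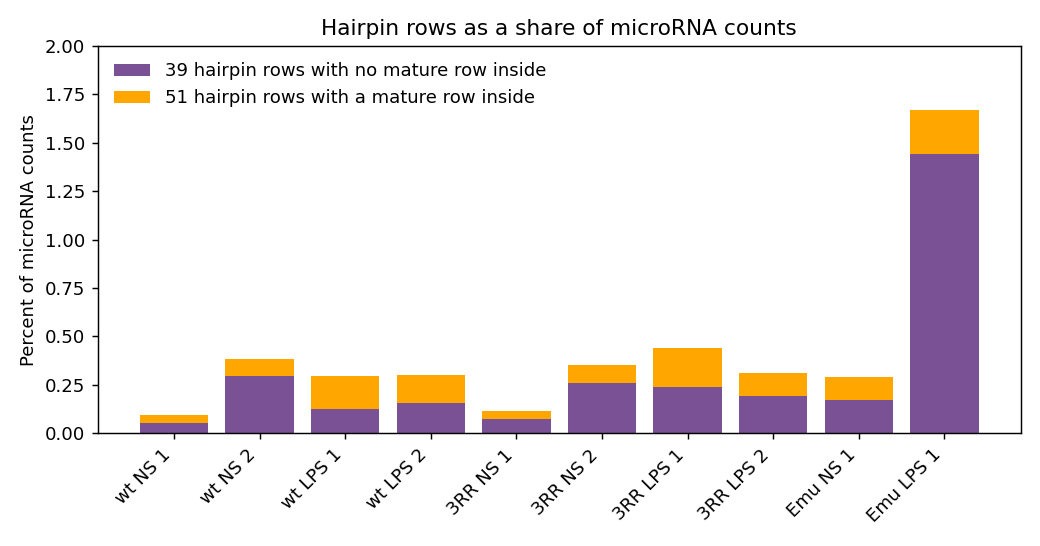
Stacked bars give the counts of the 39 orphan rows and of the 51 rows with a mature microRNA inside as a percent of all microRNA counts, 1 bar for each of the 10 libraries. The bar of the Eµ-deficient LPS library reached 1.67% and the other 9 stayed below 0.44%.

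All 713 hairpin rows together took 0.0967% and 0.398% of the microRNA counts in wt NS libraries 1 and 2, and 0.12% and 0.365% in the 3'RR-deficient NS libraries. With LPS the share was 0.309% and 0.314% in the wt libraries, and 0.45% and 0.325% in the 3'RR-deficient libraries. The second NS libraries were thus as high as the LPS libraries, and no order between NS and LPS could be read from this share. In Eµ-deficient cells it was 0.3% without LPS (Wilson 95% confidence interval 0.296 to 0.304) and 1.69% with LPS (1.68 to 1.7). Intervals cover counting error alone. The plot of the shares by library shows that orphan rows made up most of the excess: the Eµ-deficient LPS library held 59.95% of all orphan counts, 25.26% of the counts on hairpins with a mature row and 12.87% of the mature counts.

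Several orphan rows shared sequence with one another, so their counts are not taken as independent here. Among the 73 rows with known sequence, 23 shared a run of 20 or more nt with another of the 91 rows. They formed 3 groups, and the sequences of the first and the second are shown because reads from within the shared stretch cannot be assigned to a single locus. The first group had 12 rows and 10212 counts in all. Its 3 largest rows were Gm26340 (chr5:134448574-134448672, plus strand, antisense to Gtf2ird1), Gm24048 (chr3:135147408-135147513, plus strand, no long gene) and Gm22369 (chr19:9855319-9855422, plus strand, no long gene). Capitals mark the 22 nt stretch found in all 12, in the DNA letters of GENCODE M21.
Gm26340: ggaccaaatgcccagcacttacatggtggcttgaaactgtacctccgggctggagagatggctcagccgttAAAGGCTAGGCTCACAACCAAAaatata
Gm24048: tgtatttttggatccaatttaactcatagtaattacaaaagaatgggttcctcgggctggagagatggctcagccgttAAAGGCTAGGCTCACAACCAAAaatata
Gm22369: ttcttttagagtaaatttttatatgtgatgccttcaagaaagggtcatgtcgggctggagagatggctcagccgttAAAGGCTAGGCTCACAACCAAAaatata

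Between 13 and 440 annotated long RNA genes shared a run of 20 nt with a row of this first group. The second group had 6 rows and 10695 counts, and Gm23935, Gm24245 and Gm24270, on chromosomes 16, 4 and 9, were identical over all 57 nt. Their counts were also close, with 2481, 2069 and 2005 in all. Gm24245 lies at chr4:139338304-139338360 on the plus strand, 38 nt from Gm25732, and capitals mark the stretch common to the 6 rows.
Gm24245: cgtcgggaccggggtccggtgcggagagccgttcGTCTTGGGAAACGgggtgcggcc

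The third group had 5 rows and 1541 counts and shared its sequence with the mRNA of Eef1a1, the translation elongation factor. The 3 groups differed in the share of their counts found in the Eµ-deficient LPS library, with 59.36% in the first, 50.86% in the second and 16.74% in the third. With both genotypes together, 0 of 12, 0 of 6 and 0 of 5 rows passed the test for LPS against NS in edgeR (smallest adjusted p = 0.399, 0.548 and 0.238), against 21.8% of the rows of the microRNA class. The fitted log2 fold changes had medians of 0.08, 0.16 and 1.51.

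For the 51 rows with a mature microRNA inside, the hairpin count was compared with the summed count of the mature rows within it. The hairpin counts amounted to between 0.003981% (Mirlet7g) and 1920% (Mir3473c) of the mature counts, with a median of 2.68%. They were under 1% for 20 rows, from 1% to 10% for 20 and from 10% to 100% for 7, and 4 rows had more hairpin than mature counts. The lowest percentages belonged to abundant microRNAs. Mirlet7g, of the let-7 family that is high in differentiated cells, had 154 hairpin against 3868211 mature counts. Mir146, which encodes the brake on innate signalling miR-146a, had 137 against 3368560 (0.004067%), and Mir29a had 120 against 776914 (0.01545%).

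At the other end, Mir3473c had 192 hairpin and 10 mature counts, Mir5133 1028 and 120, Mir103-1 142 and 23, and Mir760 117 and 96. The main arm of Mir103-1, miR-103-3p, is listed at another locus with 211165 counts, so the ratio of this row describes its minor arm alone. Mir3473c shared a run of 20 nt with 464 annotated long RNA genes, more than any other of the 73 rows with known sequence. Mir5099 had 40689 hairpin against 78641 mature counts (51.74%), and its percentage stayed between 30.83% and 66.68% in all 10 libraries.

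**Figure D2:**
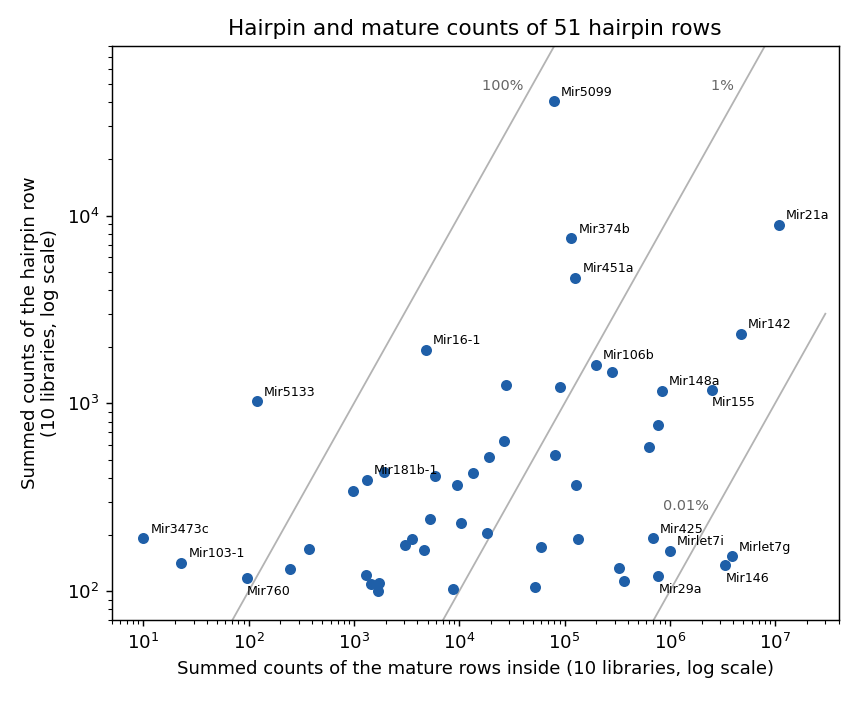
Each of the 51 points is a hairpin row, with the summed counts of its mature rows on the x axis and its own counts on the y axis (10 libraries, both on log scales). Grey lines mark hairpin counts of 100%, 1% and 0.01% of the mature counts, and 4 rows lie above the first line.

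The next comparison asked which hairpin rows differed between LPS-stimulated and non-stimulated cells, in the 8 wt and 3'RR-deficient libraries. Of the 91 rows 87 passed the filter on low counts, and 22 of them passed the test (25.3%; edgeR's quasi-likelihood test with Benjamini-Hochberg adjustment over the class, adjusted p under 0.05). Over the whole microRNA class 157 of 720 rows passed (21.8%), 13.2% higher and 8.61% lower with LPS. Among the hairpin rows 21 were higher and 1 lower. The median log2 fold change was 1.06 over the 87 rows and 0.07 over the class. The rule for the rows has to be kept in mind beside these counts, because a row with few counts in NS cells reached 100 counts through the LPS or Eµ-deficient libraries. Among hairpins with a mature row 16 of 47 passed (15 higher), and among orphan rows 5 of 39 did (all higher). The count of 22 became 12 without wt LPS library 1 or without wt LPS library 2, 13 without 3'RR-deficient LPS library 2, and 30 without both second NS libraries.

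Mir148a, whose mature product miR-148a is known to promote plasma cell differentiation, was among the rows with the smallest p. It had 0 counts in each of the 4 NS libraries. With LPS it reached 52.1 and 22.3 CPM in the wt libraries, and 21.7 and 18.4 CPM in the 3'RR-deficient libraries. Against a floor of 3 counts per library the wt level was at least 55.7-fold higher, and that of 3'RR-deficient cells at least 31.2-fold higher. In the edgeR fit of both genotypes together the adjusted p was 0.00116. In Eµ-deficient cells Mir148a stood at 0.622 CPM without and 46.4 CPM with LPS.

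Mir181b-1, a hairpin of the miR-181 family that acts in lymphocyte development, had 0.112 and 0 CPM in wt NS cells and 0 CPM in both 3'RR-deficient NS libraries. With LPS it had 11.9 and 10.5 CPM in the wt libraries, and 4.87 and 18.3 CPM in the 3'RR-deficient libraries. The 2 conditions did not overlap (adjusted p = 0.00116). In 3'RR-deficient cells this was at least 18-fold higher, and in wt, where a single NS count was found, the ratio of counts was 132 (exact interval 23.3 to 5260).

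Mir155, the hairpin of the microRNA that B-cells need for antibody responses, had 0.674 and 0.333 CPM in wt NS cells and 0.396 and 0.888 CPM in 3'RR-deficient NS cells. With LPS it had 29.4 and 11.1 CPM in the wt libraries, and 11.1 and 8.13 CPM in the 3'RR-deficient libraries. Each LPS library was above each NS library, and Mir155 rose by 4.62 ± 0.72 on the log2 scale (SE, adjusted p = 0.00261). The Eµ-deficient libraries held 5.39 CPM without and 68.9 CPM with LPS.

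Mir106b belongs to the Mir106b-25 cluster, a paralogue of the proliferation-linked miR-17~92 cluster inside the replication gene Mcm7. It had 1.68 and 0.333 CPM in wt NS and 1.32 and 4.44 CPM in 3'RR-deficient NS cells, against 81.3 and 63.4 CPM in wt LPS and 49.1 and 36.2 CPM in 3'RR-deficient LPS cells. These groups did not overlap, and the row rose by 4.97 ± 0.74 on the log2 scale (SE, adjusted p = 0.00261). Its neighbour Mir93, 126 nt away in the same gene (in an exon of a noncoding Mcm7 transcript by GENCODE M21), had a log2 fold change of 2.09 (adjusted p = 0.0925), so that 1 of the 2 rows of this family list passed, against 21.8% of the class. The rule for the rows favours such calls, and nothing is read from this count.

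Mir21a, the hairpin of a microRNA abundant in activated lymphocytes, lies in a UTR exon of Vmp1. It had 48.4 and 19.7 CPM in wt NS, 37.2 and 34.6 CPM in 3'RR-deficient NS, 181 and 212 CPM in wt LPS and 197 and 353 CPM in 3'RR-deficient LPS cells. Mir21a rose by 2.72 ± 0.43 on the log2 scale (SE, adjusted p = 0.00261). Mir16-1, from the Dleu2 locus that restrains B-cell proliferation, had 9.43 and 4.0 CPM in wt NS and 8.98 and 5.03 CPM in 3'RR-deficient NS cells. With LPS it had 86.3 and 36.3 CPM in the wt libraries, and 33.8 and 40.8 CPM in the 3'RR-deficient libraries, again without overlap (log2 fold change 2.81 ± 0.54, SE, adjusted p = 0.00717).

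The remaining rows named by rank had lower counts. Mir425 stood between 0 and 0.666 CPM in the 4 NS libraries and between 3.31 and 10 CPM in the 4 LPS libraries. Mir33, in an intron of the sterol regulator Srebf2, ran from 0 to 2.07 CPM without and from 7.96 to 15.2 CPM with LPS. Mir9-2 ran from 0 to 0.112 CPM without and from 0.442 to 9.49 CPM with LPS, and its lowest LPS value was thus just above its highest NS value. Its arms, the neural microRNAs miR-9-5p and miR-9-3p that stand at another locus of the table, rose by 3.69 ± 0.62 and 4.26 ± 1.13 (SE; adjusted p = 0.00346 and 0.0228). The orphan row ENSMUST00000157994, of 126 nt, ran from 0.337 to 3.55 CPM without and from 11.7 to 27.9 CPM with LPS. The log2 fold changes of Mir425, Mir33, Mir9-2 and ENSMUST00000157994 were 4.49 ± 0.98, 3.92 ± 0.93, 6.24 ± 1.34 and 3.79 ± 0.75 (SE), with adjusted p of 0.00994, 0.0147, 0.00967 and 0.00718.

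Another 11 rows were called higher, with log2 fold changes from 1.86 (ENSMUST00000175596) to 6.65 (Mir296). They included Mir34a, a target of p53, Mir342, Mir32, Mir345, Mirlet7d and Mir1306. Mir296 had 0 counts in all 4 NS libraries and 1.25 to 2.65 CPM with LPS, which is at least 2.74-fold higher for wt and at least 3.86-fold higher for the deletion.

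Mir451a, the erythroid hairpin, was the single row called lower and fell by 5.61 ± 1.21 on the log2 scale (SE, adjusted p = 0.00967). It had 5.95 and 0 CPM in wt NS and 12.7 and 13.9 CPM in 3'RR-deficient NS cells, 0 CPM in both wt LPS libraries, and 0.442 and 0.271 CPM in 3'RR-deficient LPS cells. One wt NS library was thus no higher than the LPS libraries. The summed erythroid, myeloid and other markers given above moved the same way, and their part in this result was not tested. Mir223, the myeloid hairpin, had a log2 fold change of -2.1 that did not pass the test.

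**Figure D3:**
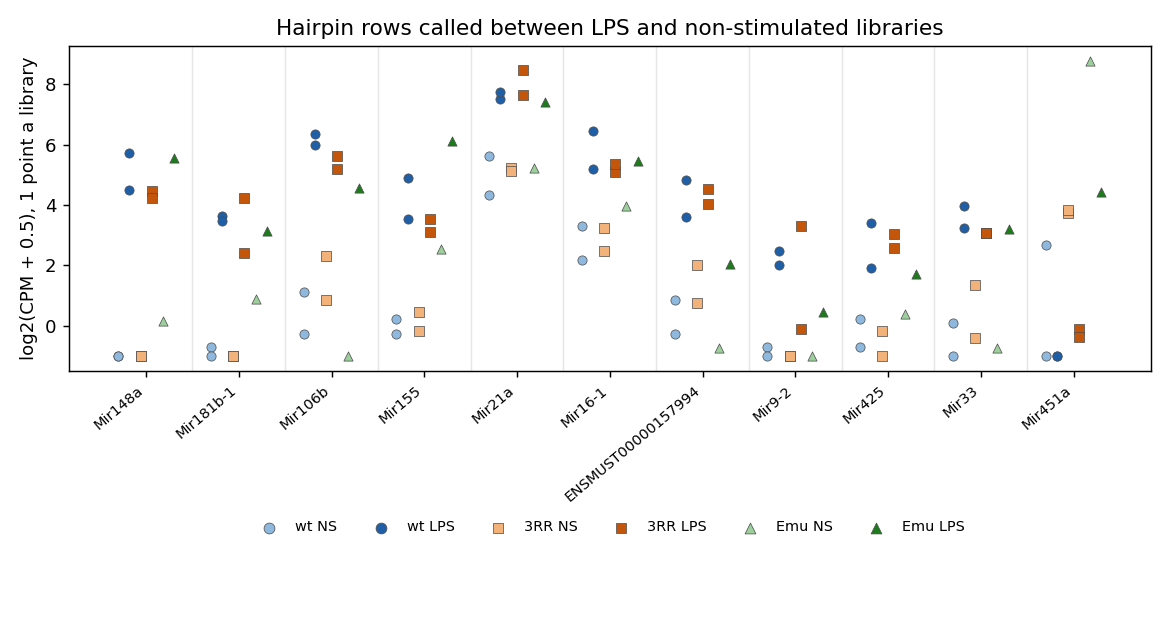
Points are single libraries, with log2(CPM + 0.5) on the y axis, for the 10 hairpin rows with the smallest p among those called higher with LPS and for Mir451a, the one called lower. For all but Mir451a the 4 LPS points of wt and 3'RR-deficient cells lay above their 4 NS points.

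Counted without a test, all 4 LPS libraries were above all 4 NS libraries for 29 of the 91 rows, against 18.9% of the class, and all 4 were below for 1 row, against 12.9% of the class. Rows near 0 in NS cells entered through their LPS or Eµ-deficient counts, so nothing is read from the 29. The 29 rows comprised 24 hairpins with a mature row, 4 orphan rows and Mir9-2. Of the lymphocyte list 6 hairpins were among the 91 rows, and Mir155, Mir181b-1, Mir21a and Mir148a passed the test while Mir142 and Mir146 did not (4 of 6, against 21.8% of the class). Of the let-7 list 3 of 4 hairpins could be tested and Mirlet7d passed (1 of 3, against the same 21.8%). Both lists were chosen with earlier results of these data known. The rule for the rows favours hairpins that are higher with LPS here too, so nothing is read from the 4 of 6 or the 1 of 3.

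Within a single genotype fewer rows passed. In wt cells 2 of 87 did, Mir148a and Mir106b (class 0.694%), and in 3'RR-deficient cells 2 did, Mir148a and Mir181b-1 (class 0.972%), all higher and none lower. An unadjusted p under 0.05 was found for 18 and 24 rows. As the rule for the rows favours calls that are higher with LPS, nothing is read from these counts beside the class. Without both second NS libraries 14 rows were called in wt and 11 in 3'RR-deficient cells. Leaving out a single library gave between 0 and 10 calls in wt and between 0 and 8 in 3'RR-deficient cells. No call was made in wt without wt NS library 2 or wt LPS library 1, and 10 without 3'RR-deficient NS library 1. In 3'RR-deficient cells no call was made without 3'RR-deficient NS library 2 or wt LPS library 1, and 8 without wt NS library 1. Libraries of the other genotype matter here because the spread was estimated over all 4 groups.

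The hairpin row was then set beside the most abundant mature row inside it. Both were tested for 45 hairpins, and the fitted change with LPS was larger for the hairpin than for the mature row in 39 of them. The median log2 fold change was 1.92 for the hairpins and 0.32 for the mature rows. Of the 15 hairpins called higher, the mature row was called higher for 6, called lower for 2 and not called for 7. Where the hairpin was not called, its most abundant mature row was called higher for 0 and lower for 3. Hairpin and mature row were fitted with the same libraries and share their scaling, so these pairs are given as a description. The hairpins were also selected on counts that many reached through the LPS or Eµ-deficient libraries (14 of the 51 held 100 counts in the 4 NS libraries alone), a rule the mature rows did not pass through. It favours larger changes of the hairpins, and nothing is read from the count of 39 or from the medians.

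In 6 pairs both rows rose. The mature row mmu-miR-155-5p had 6224 and 7374 CPM in wt NS and 27430 and 64750 CPM in wt LPS cells, and rose by 2.76 ± 0.44 on the log2 scale (SE, adjusted p = 0.00261), against 4.62 for its hairpin. For Mir148a the mature row miR-148a-3p rose by 3.59 ± 0.78, for Mir181b-1 miR-181b-1-3p rose by 2.62 ± 0.71 and for Mir16-1 miR-16-1-3p rose by 2.6 ± 0.59 (SE; adjusted p = 0.00994, 0.0271 and 0.0118). The other 2 pairs were Mir34a and Mir296. Mir34a had 0 CPM in wt LPS library 1, no higher than its NS libraries (0 to 0.561 CPM), and 6.17 to 12.6 CPM in the other 3 LPS libraries, and its call was lost in 8 of 17 alternatives.

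For Mir16-1 and Mir181b-1 the second arm is shared with another hairpin. The row miR-16-5p, with 1551947 counts, was at 0.06 ± 0.64 on the log2 scale (SE, adjusted p = 0.945), and miR-181b-5p, with 94538 counts, of -0.39 ± 0.37 (SE, adjusted p = 0.474). The arms that come from these hairpins alone passed the test and the shared arms did not, and the difference between arms was not tested.

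In 2 pairs the rows moved in opposite directions. Mir342, in an intron of Evl, had 14.8 and 3.33 CPM in wt NS and 38.6 and 38.3 CPM in wt LPS cells, and 12.02, 9.18, 38.0 and 52.6 CPM in the 3'RR-deficient NS and LPS libraries. Its mature row mmu-miR-342-3p had 5075 and 6241 CPM in wt NS and 2159 and 2034 CPM in wt LPS cells. The hairpin rose by 2.09 ± 0.5 and miR-342-3p fell by 1.4 ± 0.4 on the log2 scale (SE; adjusted p = 0.0149 and 0.0303). Mirlet7d had 14.03 CPM in wt NS library 1, close to the 14.46 CPM of wt LPS library 2, and its other NS values were 1.67 to 3.04 CPM and its other LPS values 23.6 to 27.7 CPM. Mirlet7d rose by 2.36 ± 0.72 while let-7d-5p fell by 1.56 ± 0.5 (SE; adjusted p = 0.0393 and 0.0483). The call of the hairpin was lost in 9 of 18 alternatives. The second arms of both, miR-342-5p and let-7d-3p, fell as well, by 2.09 and 1.86.

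Among the 7 hairpins called higher whose most abundant mature row was not called, Mir106b had the largest log2 fold change. Its major arm miR-106b-5p was at 1.12 ± 0.7 on the log2 scale (SE, adjusted p = 0.278) and its minor arm miR-106b-3p of 0.09 (adjusted p = 0.879), against 4.97 for the hairpin. Mir21a was close to its mature row, with 2.72 for the hairpin and 2.22 ± 0.81 for miR-21a-5p (SE, adjusted p = 0.0723). The row mmu-miR-21a-5p had 7539 and 13980 CPM in the second NS libraries of wt and 3'RR-deficient cells and 118200 and 96310 CPM in the first.

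**Figure D4:**
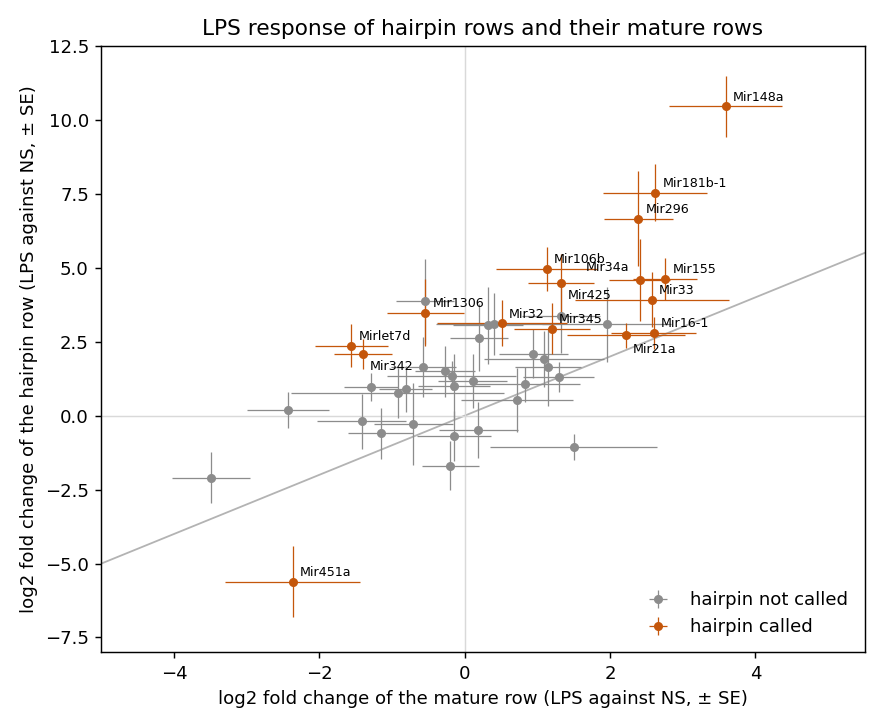
Each of the 45 points gives the log2 fold change between LPS and NS libraries (edgeR, 8 libraries) of the most abundant mature row on the x axis and of its hairpin on the y axis, with bars of 1 SE. Points above the grey line of equal change are the 39 hairpins with the larger change, and Mir342 and Mirlet7d lie at a mature change below 0.

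Both arms were tested for 29 hairpins. The median log2 fold change was 2.72 for the hairpins, 0.32 for the major arms and 0.53 for the minor arms, and the hairpin was above both arms for 22 of the 29 and below both for 2. The selection on hairpin counts favours this order too, and nothing is read from it. Minor arms of 4 hairpins called with LPS rose, as did those of Mir146 and Mir27b, whose hairpins were not called. The minor arm miR-155-3p rose by 5.56 ± 0.54 on the log2 scale, from 11 and 5.33 CPM to 425.5 and 570.1 CPM in wt cells for the row mmu-miR-155-3p. For Mir21a the minor arm miR-21a-3p rose by 4.1 ± 0.64 and for Mir148a miR-148a-5p rose by 5.41 ± 0.52 (SE; adjusted p = 0.000184 for miR-155-3p, 0.00261 and 0.000184). The minor arms of Mir34a and Mir146 (miR-34a-3p and miR-146a-3p) rose by 4.83 and 3.95 (adjusted p = 0.021 and 0.0193), and that of Mir27b (miR-27b-5p) by 1.96 (adjusted p = 0.0206). A minor arm was called higher for 6 of the 29 and a major arm for 4, and lower for 3 and 4, against 13.2% of the class called higher and 8.61% called lower. These arms belong to hairpins chosen on counts that include the LPS libraries, so nothing is read from these counts.

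The ratio of hairpin to mature counts within a library does not depend on the scaling between libraries. It was tested with limma on log2((hairpin + 0.5)/(mature + 0.5)) for 62 pairs, of which 47 were among the 91 rows. With LPS 11 of the 47 passed, all higher (3 of them, Mir148a, Mir296 and Mir15a, with no more than 1 hairpin count in any of the 4 wt and 3'RR-deficient NS libraries), and 13 of all 62 pairs did (21%), also all higher. The median change was 1.56 on the log2 scale for the 47. As the rows were selected on hairpin counts that include the LPS libraries, the rule favours ratios that are higher with LPS, and nothing is read from this count or median. The count of 11 fell to 3 when all pairs with 10 or more counts were tested, to 4 with the most abundant mature row in place of the sum, to 9 without wt NS library 2 and to between 3 and 7 without any other single library. Of the 11, Mir342 was the single one called under every alternative.

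For Mir342 the hairpin counts amounted to 0.283% and 0.0485% of the mature counts in wt NS, 0.165% and 0.133% in 3'RR-deficient NS, 1.72% and 1.8% in wt LPS and 1.22% and 2.35% in 3'RR-deficient LPS cells. These groups did not overlap, and the change was 3.69 ± 0.85 on the log2 scale (SE, adjusted p = 0.0122). For Mir106b the percentages were 0.0565% and 0.0152% in wt NS, 0.0419% and 0.202% in 3'RR-deficient NS, 2.09% and 1.41% in wt LPS and 1.62% and 0.814% in 3'RR-deficient LPS cells. It was the largest change among the 11, with 4.57 ± 0.9 on the log2 scale (SE, adjusted p = 0.00431).

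Mirlet7d went from between 0.005959% and 0.105% in NS to between 0.154% and 0.888% in LPS libraries (4.25 ± 1.03, SE, adjusted p = 0.0148). Mir29b-1 ran from 0% to 1.2% without and from 1.97% to 4.93% with LPS, and its change was 3.6 ± 0.95 (SE, adjusted p = 0.0222). The table lists its major arm miR-29b-3p, which another hairpin also encodes, at this locus. Mir1306, in a coding exon of the microprocessor gene Dgcr8, had 4.19% in wt NS library 1, above the 3.19% of wt LPS library 1, so its groups overlapped. Its change was 4.17 ± 1.14 (SE, adjusted p = 0.0254). Mir15a, the neighbour of Mir16-1, passed as well (3.21 ± 0.94, SE, adjusted p = 0.034), as did Mir296, Mir148a, Mir374b, Mir425 and Mir674. Of these, Mir148a and Mir296 had 0 hairpin counts in all 4 NS libraries and Mir15a had 1, 0, 1 and 0, so their NS ratios are set by the pseudocount and the depth of the mature row, and their calls are no measure of a change in ratio. The NS ratios of Mir425 (1, 2, 3 and 0 counts), Mir1306 (17, 0, 1 and 0 counts) and Mir29b-1 (76, 0, 2 and 1 counts in wt NS libraries 1 and 2 and 3'RR-deficient NS libraries 1 and 2) also rested mostly on 0 to 3 counts. The groups of Mir374b overlapped, with 6.21% in wt NS library 1 and 5.74% in wt LPS library 1, and it was low in the second NS libraries (0.415% and 0.279%). The ratios of Mir155 and Mir16-1, whose hairpins and mature rows both rose, did not pass, and neither did that of Mir21a.

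**Figure D5:**
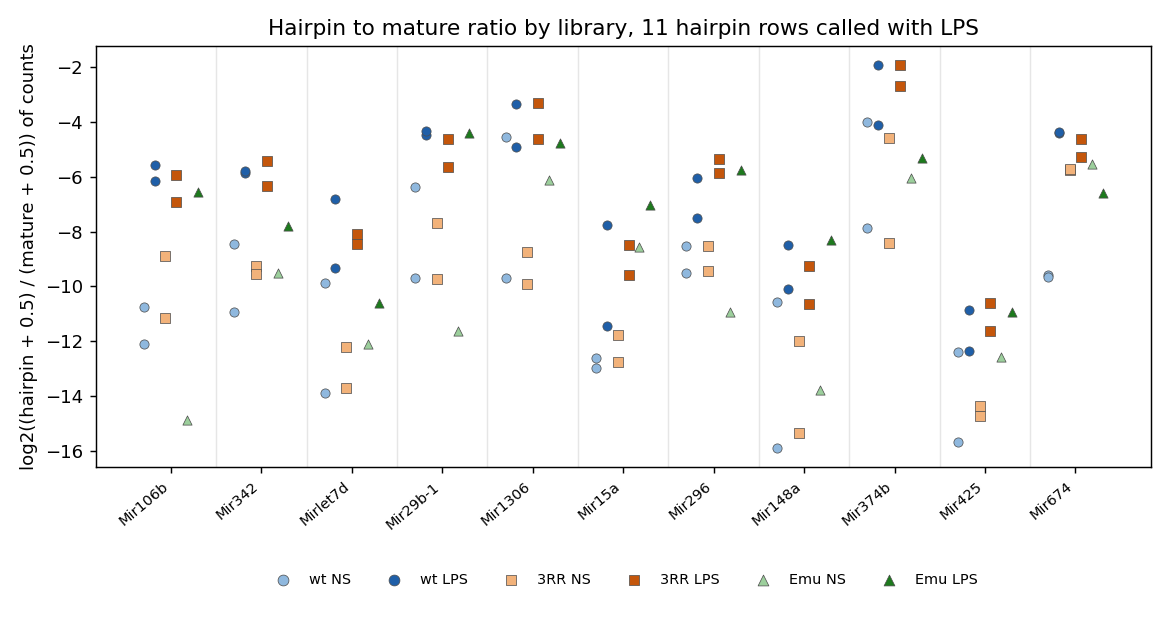
Points are single libraries, with log2((hairpin + 0.5)/(mature + 0.5)) of counts on the y axis, for the 11 hairpin rows whose ratio was called between LPS and NS libraries. Except for Mir1306, Mir374b and Mir148a, all 4 LPS points of wt and 3'RR-deficient cells lay above their 4 NS points. The gap was narrow for some, such as Mir425, and NS points with few hairpin counts rest on the pseudocount.

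The study's own question was the effect of the enhancers. For 3'RR-deficient against wt cells 0 of 87 hairpin rows passed the test over both conditions, 0 in NS cells and 0 in LPS cells (class 0.139%, 0% and 0%; edgeR). DESeq2 called 0 of these rows in each case. An unadjusted p under 0.05 was found for 3 rows over both conditions (Mir149, Mir451a and ENSMUST00000175620), for 3 in NS cells (Mir674, Mir29b-1 and Mir340) and for 0 in LPS cells. A difference between the LPS responses of the genotypes also passed for 0 rows (class 0%). The hairpin to mature ratio differed between the genotypes for 0 of 47 rows (limma, smallest adjusted p = 0.591; 3 rows under an unadjusted p of 0.05).

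Fold changes between the genotypes were nonetheless wide. Mir149 had a log2 difference of 2.73 ± 1.01 and Mir451a of 2.55 ± 1.1 (3'RR-deficient minus wt, SE, adjusted p = 0.997 for both). Mir674 in NS cells stood at 0.112 and 0 CPM in wt and at 3.04 and 3.55 CPM in 3'RR-deficient cells (5.2 ± 1.31, SE, adjusted p = 0.931), and in LPS cells at 5.21 and 7.53 CPM in the wt libraries, and at 5.09 and 5.42 CPM in the 3'RR-deficient libraries. With a biological coefficient of variation of 72.42% and 2 libraries a group, differences of this size were not separated from the spread.

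Eµ-deficient cells were compared with wt in a fit of all 10 libraries over both conditions, since within a condition a contrast would rest on a single Eµ-deficient library, and it was not run. All 91 rows passed the filter, and 6 passed the test, all higher in Eµ-deficient cells, against 16 of 988 rows of the class (1.62%, with 1.42% higher and 0.202% lower). The rule for the rows summed counts that include both Eµ-deficient libraries. It favours rows that are higher there, so nothing is read from the count of 6 or its direction. Calls rested on few libraries: 1 row was called without wt LPS library 1, without wt LPS library 2 or without the Eµ-deficient LPS library, and 25 without both second NS libraries.

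Mir451a was called in every alternative run. It had 437 CPM in Eµ-deficient NS cells, against 5.95 and 0 CPM in wt NS, and 21.1 CPM in Eµ-deficient LPS cells, against 0 CPM in both wt LPS libraries (log2 fold change 7.67 ± 1.0, SE, adjusted p = 0.00138). Its hairpin counts were 9.69% of the mature counts in Eµ-deficient NS cells, against 0% to 3.79% in the other 4 NS libraries. The mature row mmu-miR-451a had 4514 CPM there, against 3719 and 205.5 CPM in wt NS cells. The summed markers of other cells were also highest in Eµ-deficient NS cells, with 13460 CPM, and Mir223 had 88.6 CPM there against 10.3 and 4.66 CPM in wt NS cells. Their part in the result was not tested.

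Gm25732 had 242 CPM without and 333 CPM with LPS in Eµ-deficient cells, and between 10.2 and 31.6 CPM in the 4 wt libraries (3.99 ± 0.67, SE, adjusted p = 0.00828). Mir142, the hairpin of a microRNA found in all blood cells, had 50.9 and 112 CPM against 6.99 to 18.1 CPM in wt (2.79 ± 0.54, SE, adjusted p = 0.021). Its mature row mmu-miR-142a-5p did not share this order, with 38810 and 33130 CPM in Eµ-deficient and 7357 to 177500 CPM in wt libraries.

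The other 3 were Gm26340, Gm24048 and Gm22369 of the first sequence group shown above, with 28.8 to 30.04 CPM in Eµ-deficient NS and 93.9 to 107 CPM in Eµ-deficient LPS cells, against 5.39 to 10.7 CPM in the 4 wt libraries (log2 fold changes of 2.83 to 2.9, adjusted p = 0.0239 to 0.0287). As they share the stretch in capitals, the 3 calls are not taken as separate evidence, and whether reads were shared between the rows was not tested. All 12 rows of the group had fitted differences above 0, from 0.2 to 2.9, and the 9 others did not pass.

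Without a test, the highest of the 10 libraries was the Eµ-deficient LPS library for 38 of the 91 rows, against 15.3% of the class, and for 24 of the 39 orphan rows. The rule summed counts that include this library, so nothing is read from this comparison. The Eµ-deficient NS library was highest for 4 rows, against 8.5% of the class. ENSMUST00000175596 reached 8494 CPM in Eµ-deficient LPS cells, 8.84 times the highest other library, and 241 CPM in Eµ-deficient NS cells, against 191 and 214 CPM in wt NS and 310 and 749 CPM in wt LPS cells. In the 8 other libraries this row was called higher with LPS (log2 fold change 1.86 ± 0.46, SE, edgeR, adjusted p = 0.0171), a call lost in 5 of 18 alternatives. With a single Eµ-deficient LPS library, a property of the genotype and of that library cannot be told apart. Mir155 was also highest there, and its mature row mmu-miR-155-5p reached 100700 CPM against 64750 CPM in the highest wt LPS library.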

How the data were processed

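Small RNA was sequenced with the NextFlex small RNA kit (17 PCR cycles, 75 nt reads) after a narrow size selection that favours short inserts. The authors deposited whole-number read counts per small RNA feature, without normalization. Per the submitters' processing notes cutadapt 1.2.1, Bowtie2 and mm10 were used. The counting program, the treatment of reads with several matches, and how reads were divided between a hairpin row and the mature rows inside it are not given in the sources used here. A hairpin count may therefore hold partly overlapping or longer fragments, and is no measure of intact hairpins.

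Counts of the microRNA class were fitted with edgeR 4.0.16 in R 4.3.3 (TMM scaling, filterByExpr by group, two-sided quasi-likelihood F-test, Benjamini-Hochberg adjustment over the rows tested, threshold 0.05). The 8 wt and 3'RR-deficient libraries were fitted with genotype and stimulation, or a mean per group, and all 10 for Eµ. Ratios were tested with limma 3.58.1 and a pseudocount of 0.5. CPM are microRNA-class counts after TMM scaling of the 10 libraries to a common size. A floor of 3 counts per library stands for groups at 0. Intervals and floors reflect counting error alone, and the deposited counts do not separate PCR copies from molecules. Sequences came from RefSeq GRCm38.p6 and GENCODE M21, the build of the table. DESeq2 1.42.0, other scalings, filters, feature sets, replicate blocks and left-out libraries were alternatives. The calculations were tested on simulated data.

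Named rows were the 12 with most counts, up to 10 called in a direction per comparison, up to 6 with a called ratio, the 10 largest orphan rows, the 5 highest and 5 lowest ratios, and the 3 on each side of the threshold. Mir674, Mir93, Mir223, Mir34a, Mir32, Mir345, ENSMUST00000175620 and the minor arms were added after their values were seen. Neighbours were rows within 10000 nt of each other. The rows and lists were chosen with earlier results of these data known.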

Additional observations from a re-analysis of the deposited data

Results flagged for a closer look

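Mir340 moved in opposite directions with LPS in the 2 genotypes. Its values were 0.674 and 0 CPM without and 2.71 and 0.904 CPM with LPS in wt cells, and 3.43 and 5.63 CPM without and 3.1 and 1.76 CPM with LPS in 3'RR-deficient cells, so every LPS library was higher than every NS library in wt and lower in 3'RR-deficient cells. The difference between the responses was -3.14 ± 1.96 on the log2 scale (3'RR-deficient minus wt, SE) and did not pass the test (adjusted p = 1.0, edgeR). The row held few counts in every library.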

How the results depend on the processing

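No call of a named row changed sign in any alternative. For LPS against NS over both genotypes (22 rows called) 7 rows were called in every alternative, namely Mir148a, Mir181b-1, Mir106b, Mir155, Mir21a, ENSMUST00000157994 and Mir451a; the count was 13 with all features of the table and 12 to 21 with single libraries left out. In wt (2 called) it was 9 without a filter, 13 with DESeq2, 0 with all features, 14 without both second NS libraries and 0 to 10 with single libraries left out. In 3'RR-deficient cells (2 called) it was 7, 19, 0, 11 and 0 to 8 in the same order. For Eµ-deficient against wt (6 called) it was 12 without a filter, 18 with DESeq2, 14 with all features, 25 without both second NS libraries and 1 to 8 with single libraries left out; Mir451a alone was called in all. For the ratio with LPS (11 called) it was 7 with a pseudocount of 2, 3 with all pairs of 10 or more counts, 4 with the highest mature row and 3 to 9 with single libraries left out. The causes were not tested. For 3'RR-deficient against wt 0 rows were called in every alternative, by level or by ratio.

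Same-numbered libraries deviated together between wt NS and 3'RR-deficient NS (r = 0.70 over 720 rows) and little or oppositely otherwise (0.14 between the LPS groups, -0.31 to -0.07 between conditions), so the numbers were not taken to pair the samples. Over the 87 hairpin rows tested r was 0.65 between the NS groups, 0.36 between the LPS groups and -0.29 to -0.12 between conditions. With the replicate number as a block 19 rows were called for LPS over both genotypes, 6 in wt, 2 in 3'RR-deficient cells, 7 for Eµ and 7 by ratio. With the replicate block within condition it was 41 for LPS and 22 for Eµ.

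Counting only the 91 rows, the mean hairpin share of microRNA counts was 0.299% in wt LPS, 0.293% in Eµ-deficient NS and 1.67% in Eµ-deficient LPS cells. All 713 hairpin rows as a share of all counts of the table came to 0.223% in wt LPS, 0.283% in 3'RR-deficient LPS, 0.181% in Eµ-deficient NS and 0.867% in Eµ-deficient LPS cells. Many rows hold few counts in NS libraries, where 3 counts correspond to 0.337 to 0.999 CPM in wt, so that small NS levels could not be ordered.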
